A study of Mus musculus with 20 samples.

Results

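The Reg (regenerating) genes encode small secreted proteins with a C-type lectin fold. The 7 mouse members Reg1, Reg2, Reg3a, Reg3b, Reg3g, Reg3d and Reg4 were followed across 20 single-colour microarrays by taking each probe, other than controls, whose gene name in the scanner files is a member. This gave 7 probes, 1 for each gene and each printed as a single spot, of 39429 probes on the array. The series, per its title, asked which interferon-stimulated genes are enriched in several tissues of mice lacking Irgm1, an interferon-induced GTPase with roles in autophagy and in resistance to intracellular pathogens. Small intestine (whole duodenum) and isolated colonic macrophages were taken from 3 animals labelled Irgm1-/- and 3 wild type animals each, and whole salivary gland from 4 animals labelled Irgm1-/- and 4 wild type animals. All animals were on a C57BL/6 background, lived in a specific pathogen-free barrier facility and ate autoclaved chow. In small intestine and macrophages the mice labelled Irgm1-/- were 6, 6 and 8 weeks old with 2 males and 1 female, and the wild type mice were 6, 6 and 8 weeks old and all female. Salivary gland came from females, 9 weeks old in the group labelled Irgm1-/- and 6 or 7 weeks old in wild type. The small intestine and macrophage scanner files bear the numbers of the same 6 animals, and their 12 arrays were treated as separate samples unless stated.

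Reg3b and Reg3g are made by enterocytes and Paneth cells of the small intestine, and Reg3g kills Gram-positive bacteria by binding their peptidoglycan. Microbial signals through Myd88, and interleukin 22 acting through Stat3, switch on both genes in gut epithelium. Reg1 and Reg2 are products of the acinar cells of the exocrine pancreas, where they rise with injury and regeneration. Reg4 is made by secretory cells of the gut epithelium, enteroendocrine cells among them, and Reg3d is best known from the pancreas.

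Reg3b, Reg3d, Reg3a, Reg2, Reg1 and Reg3g follow each other in this order on chromosome 6 in the RefSeq annotation of GRCm38.p6, with a single pseudogene between Reg1 and Reg3g, and Reg4 lies on chromosome 3. The promoters of 4 of these neighbours are shown because their levels parted ways in the 2 gut samples described below. They are RefSeq sequences of GRCm38.p6, from 250 bases before to 50 after the gene start, and promoters of all 7 members were matched by symbol. Capitals mark matches, on either strand, to TATAAA (the core of a TATA box), TTCNNNGAA (the core bound by STAT factors), CACCTG and TTTCCC (the E-box and the TC box bound by PTF1, the acinar cell factor) and GAAA followed by any 2 bases and GAAA (the core of an interferon-stimulated response element).
Reg1, chr6:78425733-78426032, plus strand: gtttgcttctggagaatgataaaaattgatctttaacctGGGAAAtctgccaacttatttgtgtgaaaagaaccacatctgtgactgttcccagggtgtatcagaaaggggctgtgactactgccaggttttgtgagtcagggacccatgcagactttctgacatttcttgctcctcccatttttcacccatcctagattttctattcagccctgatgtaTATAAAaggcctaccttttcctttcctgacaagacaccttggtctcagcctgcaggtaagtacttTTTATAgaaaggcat
Reg2, chr6:78404905-78405204, plus strand: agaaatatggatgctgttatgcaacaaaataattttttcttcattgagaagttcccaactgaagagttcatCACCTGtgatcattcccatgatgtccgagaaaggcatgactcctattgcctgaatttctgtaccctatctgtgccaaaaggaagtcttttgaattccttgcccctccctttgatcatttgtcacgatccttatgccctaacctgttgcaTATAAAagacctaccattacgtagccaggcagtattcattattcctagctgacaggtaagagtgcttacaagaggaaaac
Reg3b, chr6:78370635-78370934, plus strand: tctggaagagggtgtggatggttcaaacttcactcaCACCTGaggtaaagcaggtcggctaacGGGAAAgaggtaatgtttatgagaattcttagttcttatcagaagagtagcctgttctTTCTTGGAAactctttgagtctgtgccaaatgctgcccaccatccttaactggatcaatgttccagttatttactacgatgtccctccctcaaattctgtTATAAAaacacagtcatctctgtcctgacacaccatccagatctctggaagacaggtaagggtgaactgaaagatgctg
Reg3g, chr6:78468825-78469124, minus strand: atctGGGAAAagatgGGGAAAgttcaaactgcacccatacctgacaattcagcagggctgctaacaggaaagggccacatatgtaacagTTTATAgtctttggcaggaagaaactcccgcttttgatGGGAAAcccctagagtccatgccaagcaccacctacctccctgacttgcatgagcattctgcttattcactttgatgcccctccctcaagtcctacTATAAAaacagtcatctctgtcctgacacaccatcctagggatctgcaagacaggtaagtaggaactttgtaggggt
TATAAA stood at -30 in Reg1, -30 in Reg2, -29 in Reg3b and -27 in Reg3g on the gene's strand, counted from the gene start. It was present in 4 of the 7 member promoters and in 13.6% of 32851 promoters of the same length. CACCTG was present in 5 of 7 member promoters (Reg2, Reg3a, Reg3b, Reg3d and Reg4) against 20.2% of all promoters, and TTTCCC in 4 of 7 (Reg1, Reg3b, Reg3d and Reg3g) against 25.2%. TTCNNNGAA was found in Reg3b, at -129, and in Reg3d, where it overlaps a TTTCCC, against 8.30% of all promoters. The core of the interferon-stimulated response element was in 0 of the 7 and in 3.44% of all promoters. These are matches of letters in a window, which show no binding. The 60-base probes themselves shared runs of at most 7 identical bases with the probe of another member.

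Levels are given as the log2 of the background-subtracted intensity minus the array's own 75th percentile, so that 0 is the brightness of the 75th percentile of that array. Such a level can be compared between arrays for a gene whose signal is well above background. It cannot be compared between genes, since each probe binds with its own strength. At background the level depends on the array's 75th percentile. In salivary gland, Reg3d intensities of 20.5 to 25.0, not well above background, gave levels between -5.43 and -2.60. A probe is called detected where the scanner software marked it as well above background. The 75th percentile lay between 3868 and 4690 on the small intestine arrays labelled Irgm1-/- and between 2322 and 3204 on the wild type ones, so brightness ran with genotype there. It lay between 1466 and 1854 on macrophage arrays labelled Irgm1-/- and between 922 and 2137 on wild type ones, and between 154 and 1022 against 130 and 332 in salivary gland. The number of arrays limits the precision. The scan day differed between the 3 tissues, which cannot be told apart from tissue. Irgm1 itself was higher on the arrays labelled Irgm1-/-. The difference was 1.16 in small intestine (limma adjusted p = 0.0572), 0.88 in macrophages (adjusted p = 0.3) and 2.54 in salivary gland (adjusted p = 0.000265). No source used here says which part of Irgm1 was deleted or where the probe lies relative to it, so every direction below follows the label.

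In salivary gland no Reg gene was detected. Of 56 values (7 probes on 8 arrays) 0 were well above background, and intensities ran from 20.5 to 40.2. No member could therefore be tested for genotype, in a comparison that called 2.33% of the 13650 probes tested, 2% higher and 0.33% lower.

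In small intestine 6 of the 7 genes were detected on all 6 arrays, and the levels of the antimicrobial lectins overlapped or nearly touched between genotypes. Reg3b stood at 6.67, 6.88 and 6.55 in mice labelled Irgm1-/-, against 7.56, 6.97 and 7.04 in wild type mice. The groups did not overlap, although the intensities before scaling ran the other way in mean, between 425640 and 478600 against 363270 and 438080. Reg3g, its close relative, stood at 6.52, 6.77 and 6.38 in mice labelled Irgm1-/-, against 7.31, 6.91 and 6.60 in wild type mice. Here the mouse labelled Irgm1-/- with the highest level lay above the wild type mouse with the lowest. Reg3a, another member of the antimicrobial branch, was at 3.38, 3.64 and 3.59 in mice labelled Irgm1-/-, against 4.37, 4.31 and 3.89 in wild type mice, and the groups did not overlap.

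Reg4 had 2.19, 2.36 and 3.16 in small intestine of mice labelled Irgm1-/-, against 2.88, 2.85 and 3.90 in wild type, with overlap between the groups. In each genotype replicate 3 was the highest. Reg3d was at -3.37, -3.16 and -3.43 in mice labelled Irgm1-/-, against -2.29, -2.60 and -3.36 in wild type, with wild type replicate 3 inside the range of the other genotype.

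The pancreatic members were split in small intestine. Reg1 was detected on every array, at -1.02, -1.55 and -1.24 in mice labelled Irgm1-/-, against -0.26, -0.34 and -0.82 in wild type mice, and the groups did not overlap. Reg2 was detected on 0 of 6 arrays, with intensities between 29.5 and 48.4 in mice labelled Irgm1-/- and between 26.3 and 55.0 in wild type mice. The duodenum samples thus gave signal for Reg1 and only a bound for Reg2.

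**Figure D1:**
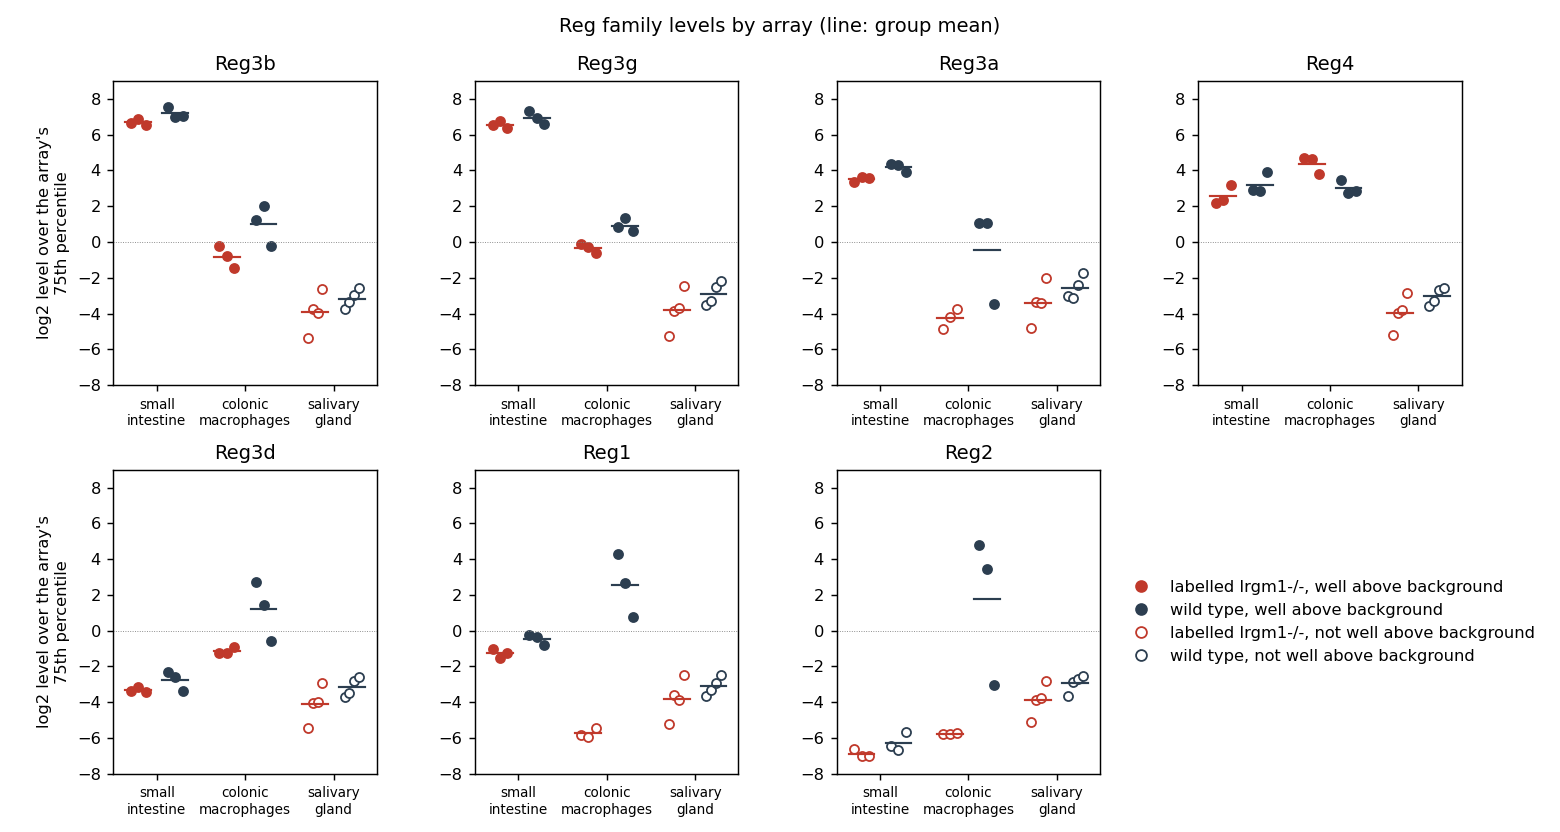
Level of each Reg probe on every array, as log2 intensity minus the array's 75th percentile, in small intestine, colonic macrophages and salivary gland, with mice labelled Irgm1-/- left of wild type, filled points detected, open points not detected and lines at group means. In macrophages Reg1 and Reg2 are open in all 3 mice labelled Irgm1-/- and filled in all 3 wild type mice, and in salivary gland every point is open.

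No Reg gene passed the genotype test in small intestine (limma with Benjamini-Hochberg adjustment over 23236 probes, 0.116% of which were called, all of them higher). Over all probes 1512 (6.51%) passed limma's test before adjustment at 0.05, and of the 6 members Reg1 and Reg3a did. The tested members had differences between -0.79 and -0.38, labelled Irgm1-/- minus wild type, beside a median of -0.07 over all probes. Reg1 differed by -0.79 (SE 0.223, n = 3 per group, 95% confidence interval -1.33 to -0.26, limma adjusted p = 0.643) and Reg3a by -0.66 (SE 0.185, interval -1.10 to -0.21, adjusted p = 0.643). For Reg3b the difference was -0.49 (SE 0.208, interval -0.99 to 0.01) and for Reg3g -0.38 (SE 0.224, interval -0.92 to 0.16), both with a limma adjusted p of 0.685. Reg4 differed by -0.64 and Reg3d by -0.57, within intervals of -1.57 to 0.29 and -1.27 to 0.13. Within the 3 numbered pairs of mice, each of the 6 members was lower in the mouse labelled Irgm1-/- in 3 of 3 pairs, by -0.69, -0.49 and -0.74 for Reg4 and by -0.78, -0.14 and -0.21 for Reg3g. For Reg1, Reg3a and Reg3b this follows from groups that do not overlap. The share of all probes lower in 3 of 3 pairs was not counted. In each pair the 75th percentile that was subtracted was higher on the array labelled Irgm1-/-. With the pair as a block the SE of Reg4 was 0.154, and 0 of 6 members passed (limma adjusted p = 0.585 for Reg4 and 0.602 for the others). The groups did not overlap, lower in mice labelled Irgm1-/-, for 3 of the 6 tested members (Reg1, Reg3a and Reg3b), against 11.7% of all tested probes, and for 0 members with higher levels, against 6%. The direction of Reg3b and Reg3g depended on the scaling of the arrays. Quantile normalization gave 0.06 and 0.09. The authors' series table, whose array medians were equal within a tissue, gave the same rounded values and may not be a separate check. With sex as a covariate Reg4 was at -0.05.

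Colonic macrophages gave a different picture. Reg1, Reg2, Reg3a, Reg3d, Reg3b and Reg3g were each lower in all 3 mice labelled Irgm1-/- than in any wild type mouse, and Reg4 was higher. Reg1 passed the test over all probes, though not with sex as a covariate or without wild type replicate 2. The calls of the others also depended on how the arrays were fitted. Reg1, Reg2 and Reg3a were tested only because wild type arrays detected them, so their fitted values compare a signal with background. Genes of pancreatic acinar cells, which are not expected among isolated colonic macrophages, were high in the same wild type samples, and carry-over of pancreas was not tested.

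Reg1 gave levels of -5.85, -5.93 and -5.43 in macrophages of mice labelled Irgm1-/-, with intensities of 25.5, 24.5 and 42.9 that were not well above background. In wild type mice it gave 4.29, 2.68 and 0.75, with intensities of 18058, 10545 and 3592. Every wild type array thus detected this acinar cell product and no array labelled Irgm1-/- did. Reg1 was at least 90.0-fold lower in mice labelled Irgm1-/-, where the bound sets the mean of the wild type arrays against the lowest signal called well above background on each dim array, or the probe's own where that was higher. The bound was 49.7-fold without wild type replicate 1 and 169-fold without wild type replicate 3. The measured means were -5.73 ± 0.26 in mice labelled Irgm1-/- and 2.57 ± 1.77 in wild type (SD, n = 3 each; limma adjusted p = 0.00328), in a comparison that called 0.141% of 26975 probes (0.133% lower and 0.00741% higher). Without wild type replicate 2 the call ended (adjusted p = 0.0616), and with sex as a covariate it also ended (adjusted p = 0.192).

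Reg2, the other pancreatic member, gave -5.80, -5.79 and -5.70 in mice labelled Irgm1-/- (not detected), against 4.82, 3.47 and -3.04 in wild type mice (detected). Wild type replicate 3 stood far below the other wild type mice, at an intensity of 261 beside 25971 and 18260. Reg2 was at least 50.9-fold lower in mean, but the limma test did not pass (adjusted p = 0.121). The bound was 17.6-fold, 28.0-fold and 267-fold without wild type replicates 1, 2 and 3.

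Reg3a shared that pattern, with -4.87, -4.18 and -3.75 in mice labelled Irgm1-/- (not detected) against 1.05, 1.07 and -3.46 in wild type mice (detected). It was at least 9.93-fold lower in mean, and its test did not pass (limma adjusted p = 0.18). The bound was 5.92-fold, 5.87-fold and 28.2-fold without wild type replicates 1, 2 and 3. Reg3d, detected on all 6 arrays, was at -1.25, -1.23 and -0.91 in mice labelled Irgm1-/-, against 2.73, 1.43 and -0.58 in wild type, again with replicate 3 lowest among wild type mice. Its difference was -2.32 (SE 0.703, adjusted p = 0.212).

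The antimicrobial lectins Reg3b and Reg3g were detected on every macrophage array, and their groups lay closer together. Reg3b was at -0.23, -0.76 and -1.45 in mice labelled Irgm1-/-, against 1.22, 2.03 and -0.22 in wild type, so the nearest mice of the 2 groups were 0.01 apart. Reg3g was at -0.13, -0.27 and -0.61 in mice labelled Irgm1-/-, against 0.81, 1.33 and 0.60 in wild type. The differences were -1.82 (SE 0.559, limma adjusted p = 0.219) for Reg3b and -1.26 (SE 0.285, adjusted p = 0.125) for Reg3g.

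Reg4 went the other way in macrophages, with 4.67, 4.63 and 3.78 in mice labelled Irgm1-/-, against 3.46, 2.77 and 2.84 in wild type. Every mouse labelled Irgm1-/- was above every wild type mouse, and the difference was 1.34 (SE 0.335, n = 3 per group, limma adjusted p = 0.149). Over the family, 6 of 7 members had groups that did not overlap with the mice labelled Irgm1-/- lower, against 8.34% of all tested probes, and 1 of 7 with them higher, against 7.2%. Of the 6 lower members, Reg1, Reg2 and Reg3a were tested through the wild type arrays alone, so a lower level there was fixed by detection. Other settings moved the count of members past the threshold from 1. With the mouse number as a replicate block, 5 members passed (Reg1, Reg2 with adjusted p = 0.0361, Reg3b 0.0329, Reg3g 0.0277 and Reg4 0.0312), in a fit that called 1483 probes against 38 without the block. Without wild type replicate 3, 4 members passed (Reg1, Reg2, Reg3a and Reg3d). In a fit of all 20 arrays 3 passed (Reg1, Reg2 and Reg3a).

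Both macrophage slides held both genotypes. Within them the difference, labelled Irgm1-/- minus wild type, was -9.37 and -6.18 for Reg1, -9.94 and -2.66 for Reg2, -5.58 and -0.29 for Reg3a and -3.32 and -0.33 for Reg3d. It was -2.12 and -1.23 for Reg3b, -1.27 and -1.22 for Reg3g and 1.54 and 0.94 for Reg4. These signs follow from groups that do not overlap. The second slide held 1 mouse of each genotype.

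**Figure D2:**
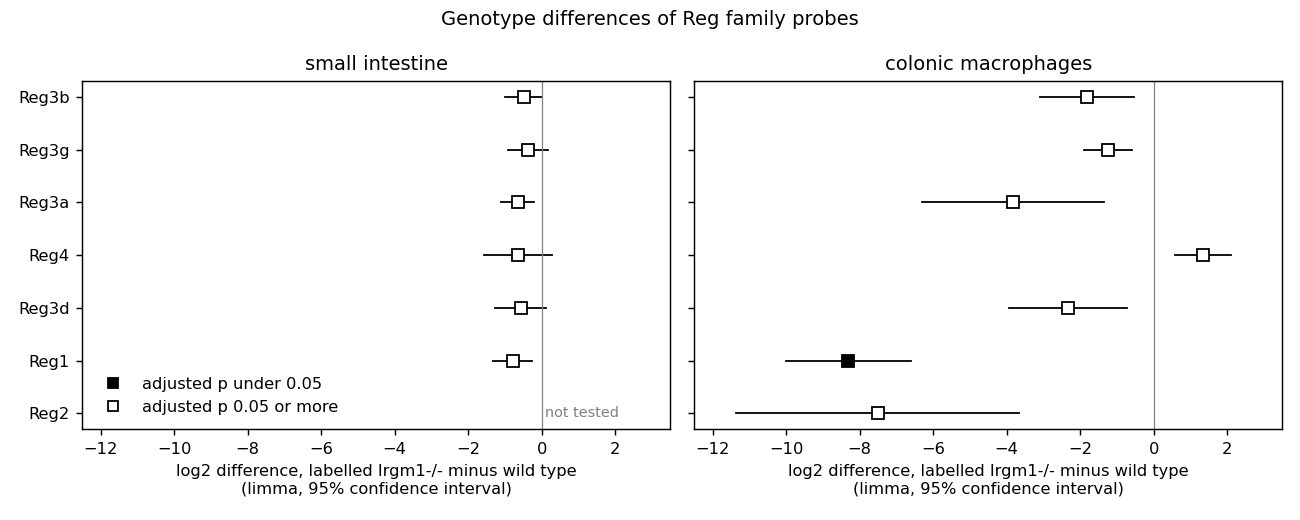
Difference of each Reg probe, labelled Irgm1-/- minus wild type on the log2 scale, with its 95% confidence interval from limma, in small intestine and in colonic macrophages, filled where the adjusted p is under 0.05. Reg1 in macrophages, at a fitted -8.31 against background, is the filled square, and Reg4 in macrophages, at 1.34, is the member above 0.

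Genes of the exocrine pancreas fell alongside Reg1 in these macrophage samples. Of 28 tested pancreatic acinar markers 18 fell in mice labelled Irgm1-/- and 0 rose, in a comparison that called 0.133% of all probes lower. Their median difference, which includes signals at background, was -5.42 beside a median of all probes of 0.09. Cela2a, an elastase, was at least 739-fold lower (limma adjusted p = 0.000219) and the trypsinogen Try4 at least 665-fold lower. The trypsinogens Prss2 and Try5, each detected on 1 of 3 arrays labelled Irgm1-/- and on 3 of 3 wild type arrays, fell as well (adjusted p = 0.000219 and 0.000354). Of 29 acinar markers on the array, 16, 15 and 21 were detected on the arrays labelled Irgm1-/-, against 28, 28 and 29 on the wild type arrays. Their summed level, in multiples of the 75th percentile, was 135, 117 and 73.0 in mice labelled Irgm1-/-, against 1850, 681 and 403 in wild type mice. This sum includes Zg16, which is also on the goblet cell list, and Spink1. Their means were not lower in mice labelled Irgm1-/-, at 4.96 and 4.73 against 4.88 and 4.31 in wild type. Sycn, Cela1, Cela3a and Cpa1 were detected on every macrophage array. They had means of 4.80, 2.19, 1.49 and 0.73 in mice labelled Irgm1-/-, each lower than in wild type. Acinar enzymes that no array labelled Irgm1-/- detected were Prss1, Try4, Cela2a, Cpb1, Pnliprp1 and Pnliprp2, with the acinar membrane protein Gp2. These were tested through the wild type arrays alone, so a lower level there was fixed by detection. The transcription factor Bhlha15 was not detected in those mice either. It was detected on only 1 of 3 wild type arrays, too few to be tested, with means of -4.16 and -3.72 in wild type. The acinar transcription factors Ptf1a and Rbpjl were detected on every macrophage array of both genotypes, at -2.47 ± 0.46 and -0.47 ± 0.24 in mice labelled Irgm1-/- and at -2.34 ± 0.27 and -0.36 ± 0.51 in wild type (SD, n = 3 each). The labels describe these samples as isolated colonic macrophages, in which acinar cells are not expected. Fewer cells of a type and less RNA per cell cannot be told apart in such samples, and the part of pancreatic RNA in the Reg differences was not tested.

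The macrophage samples also gave signal for epithelial genes. All 15 gut epithelium markers were detected on all 6 macrophage arrays, with summed levels of 341, 242 and 164 in mice labelled Irgm1-/- and of 317, 141 and 135 in wild type. Of these 15 genes 0 passed the limma test and 1 had an unadjusted p under 0.05, as did 10.8% of all tested probes, with a median difference of 0.57. Goblet cell markers had a median of 1.07, with 0 of 12 called, 8 at an unadjusted p under 0.05, and summed levels of 310, 303 and 179 in mice labelled Irgm1-/-, against 212, 130 and 148 in wild type. Enteroendocrine markers had a median of 0.69 with 0 of 11 called and 4 at an unadjusted p under 0.05. Macrophage markers had a median of -0.92 with 0 of 14 called and 4 at an unadjusted p under 0.05, and 11, 14 and 14 of 15 were detected in mice labelled Irgm1-/-, against 13, 15 and 15 in wild type. Islet markers had a median of -0.35 with 0 of 5 called and 1 at an unadjusted p under 0.05, the insulin genes Ins1 and Ins2 differing by -2.80 and -1.51. The part of these cell types in the differences of Reg3b, Reg3g and Reg4 was not tested.

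**Figure D3:**
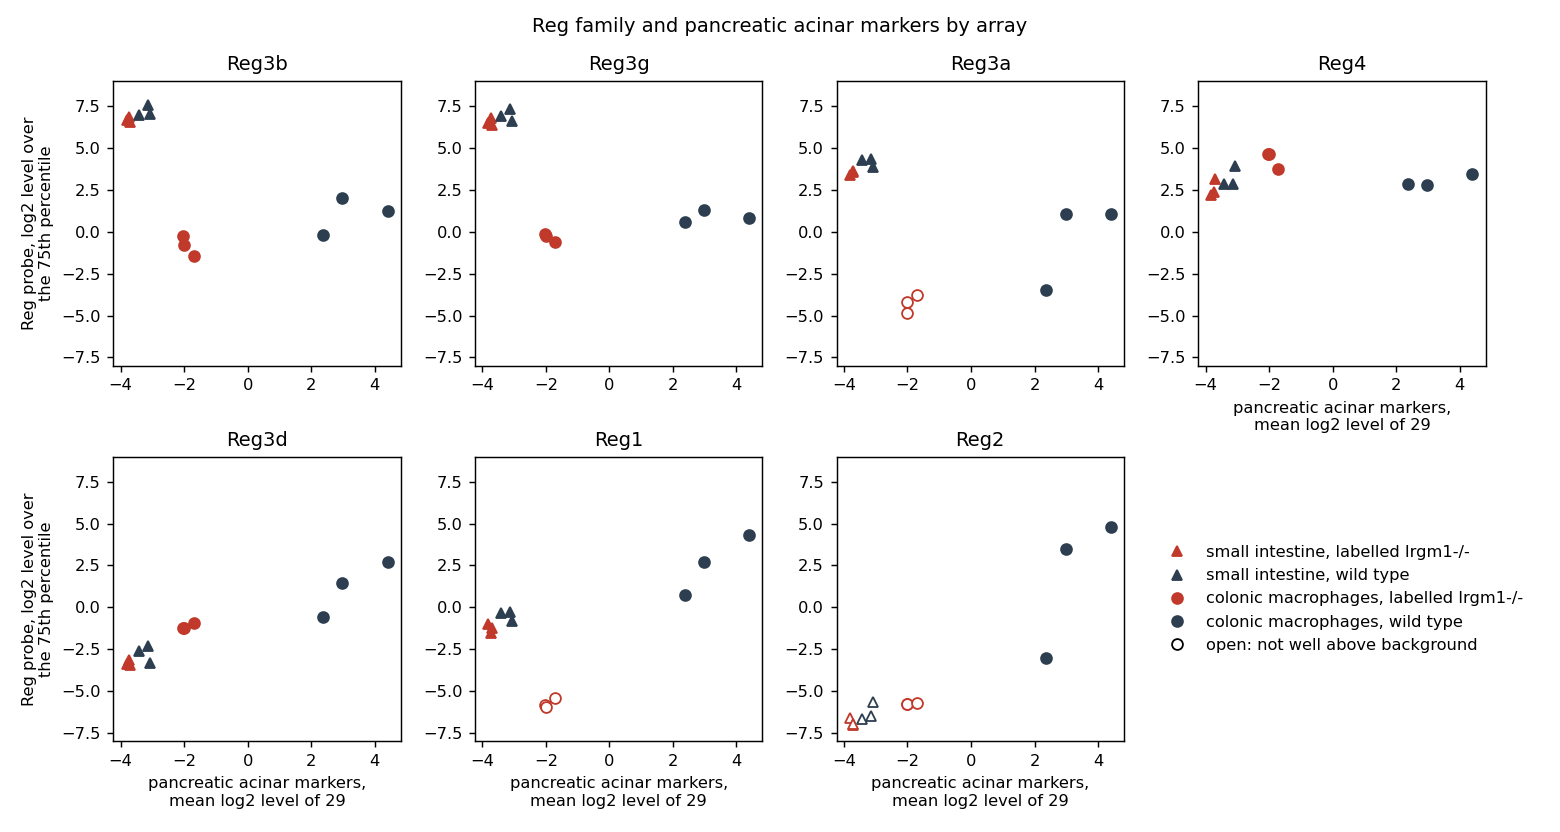
Level of each Reg probe against the mean log2 level of 29 pancreatic acinar markers on the same array, for small intestine (triangles) and colonic macrophages (circles), both axes relative to the array's 75th percentile and open symbols not detected. The wild type macrophage arrays sit between 2.38 and 4.40 on the horizontal axis and the arrays labelled Irgm1-/- between -2.03 and -1.71. Among the wild type mice Reg1, Reg2 and Reg3d have the order of the acinar markers. The means of the gut epithelium and islet markers have that order too, and those of the goblet cell, enterocyte and macrophage markers do not. The subtracted 75th percentile (922, 1645 and 2137 in wild type replicates 1, 2 and 3) has the reverse order.

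**Figure D4:**
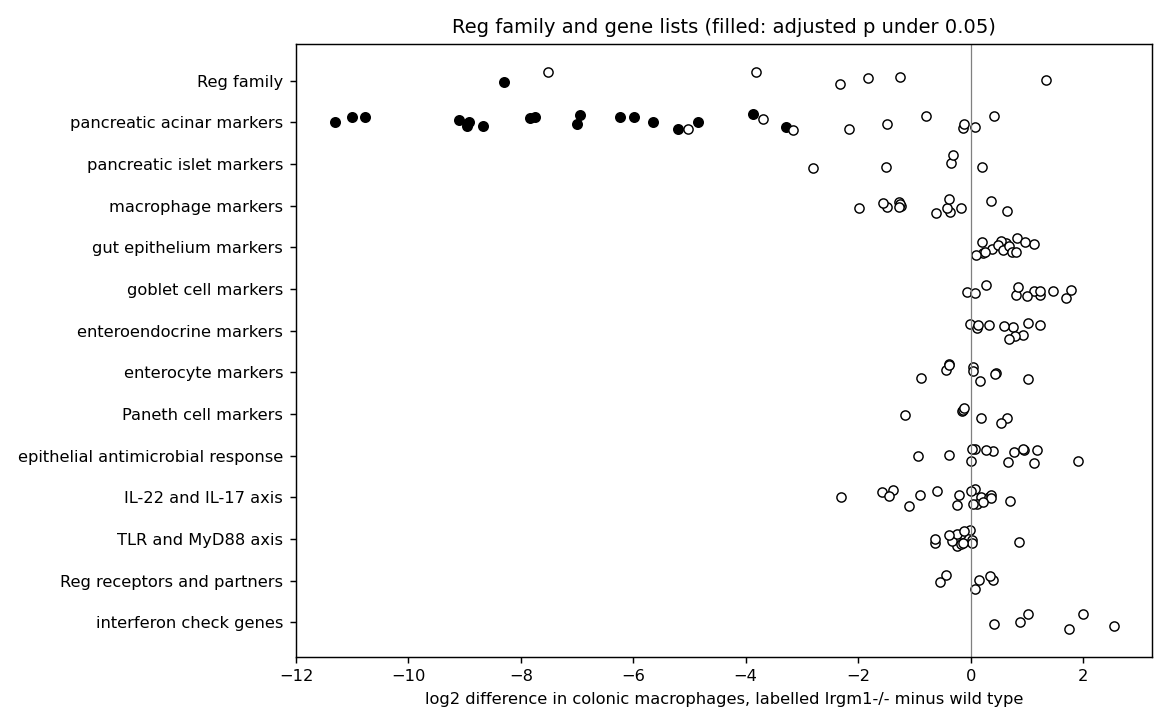
Difference in colonic macrophages, labelled Irgm1-/- minus wild type on the log2 scale, of every tested Reg probe and of every tested gene of 13 lists, 1 point a gene, filled where the limma adjusted p is under 0.05. Filled points are found in the Reg family (Reg1) and among the 28 pancreatic acinar markers, of which 18 are filled. The comparison called 0.141% of all probes, and some markers were tested through the wild type arrays alone.

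In small intestine all 15 gut epithelium markers were detected on all 6 arrays, while 14 to 16 of the 29 acinar markers were, and 0 of 16 tested ones passed the limma test, 3 having an unadjusted p under 0.05 (median -0.51). The 16 include Zg16, which is also on the goblet cell list, and Spink1. Zg16 was at 6.71 in mice labelled Irgm1-/- and 7.30 in wild type, and Spink1 at 5.80 and 6.28. Prss1, Prss2, Try4, Try5, Cela2a, Cela3b, Cpa1 and Pnlip were detected on no small intestine array and are not among the 16. The mean level of the 16 tested markers was -1.10, -1.06 and -0.87 in mice labelled Irgm1-/-, against -0.56, -0.64 and -0.45 in wild type. How much of this mean comes from pancreas was not tested. Across the 6 mice this mean had a Pearson r between 0.44 (Reg3g) and 0.81 (Reg4) and a Spearman rho between 0.43 and 0.83 with the 6 detected members. None passed the exact two-sided permutation test adjusted over the 6 members (smallest adjusted p = 0.219 for r and 0.206 for rho). Without the 2 mice farthest from the median marker level r was between 0.50 and 0.98. With each genotype's mean removed, r was -0.28 for Reg3a, -0.22 for Reg3b, -0.52 for Reg3g, -0.55 for Reg3d and -0.40 for Reg1, and 0.94 for Reg4 (permutation test, adjusted p = 0.15 for Reg4). For the other 5 members the positive r did not hold within genotypes. Without the 2 farthest mice the r of Reg4 was 0.50, and 0.36 with means removed. The wild type mouse with the highest acinar level in macrophages had the lowest wild type mean of these 16 markers in its small intestine. The 3 wild type means lay close together, between -0.64 and -0.45, and a relation between the 2 samples of a mouse was not tested.

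The genotype difference of Reg1 in small intestine differed from that in macrophages by 7.51 log2 units (SE 0.957, 95% confidence interval 5.50 to 9.53, n = 3 per group and tissue, limma interaction adjusted p = 0.00085). It was the single member of 7 that passed this test, which called 0.57% of 30194 probes, 0.517% with a positive and 0.053% with a negative value. Since Reg1 was not detected in macrophages of mice labelled Irgm1-/-, the size rests on signals at background. Reg2 was not detected in small intestine of either genotype, which leaves no measured difference to compare. Reg4 had -1.98 (SE 0.676, adjusted p = 0.226), which is the opposite sign. With the animal as a random block, Reg1 again passed and was again the single member.

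Among wild type samples, small intestine and macrophages differed in 6 of 7 members, in a comparison that called 82.8% of 26823 probes, 39.5% higher and 43.3% lower in small intestine. The antimicrobial members were higher in small intestine, Reg3b at 7.19 ± 0.32 against 1.01 ± 1.14, Reg3g at 6.94 ± 0.35 against 0.92 ± 0.37 and Reg3a at 4.19 ± 0.26 against -0.45 ± 2.61 in macrophages (SD, n = 3 each). The differences were 6.18, 6.02 and 4.64. The pancreatic members and Reg3d were lower in small intestine than in macrophages, with differences of -3.05 for Reg1 and -3.94 for Reg3d and at least 96.5-fold lower levels of Reg2. Reg4 did not differ beyond its spread, at 3.21 ± 0.60 in small intestine and 3.02 ± 0.38 in macrophages (difference 0.19, interval -0.81 to 1.19, limma adjusted p = 0.719). Its difference was -0.44 under quantile normalization, 1.75 with arrays scaled to their median, where it passed (adjusted p = 0.000224), and -0.16 without small intestine replicate 3. The wild type macrophage samples in which Reg1, Reg2 and Reg3d were higher are those with the high acinar markers described above. Zg16, Spink1, Pnliprp2 and Bhlha15 of the acinar list had higher means in wild type small intestine than in wild type macrophages. The part of acinar RNA in the order of tissues was not tested.

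Against salivary gland, wild type small intestine was at least 299-fold higher for Reg3b, at least 251-fold for Reg3g, at least 37.4-fold for Reg3a, at least 18.9-fold for Reg4 and at least 1.47-fold for Reg1. All of them entered this comparison through small intestine, so it sets signals against background. It called 67.4% of 20753 probes, 34.5% higher and 32.9% lower in small intestine. No fold is given for Reg3d (adjusted p = 0.555) because its level in small intestine lay below what could be called detected in salivary gland. The bound of Reg1 is small for the same reason. Under normexp background correction Reg1 did not pass (0.68, adjusted p = 0.273) and Reg3d was at -0.76. Reg3d passed with higher levels in small intestine, at 3.10, 1.48 and 2.04, under quantile normalization, with arrays scaled to their median and with the percentile over detected probes.

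No gene of the pathways around the Reg family passed the genotype test in the gut samples. Of the interleukin 22 and interleukin 17 axis, which controls epithelial Reg3 genes, 0 of 18 tested members passed in small intestine and 0 of 19 in macrophages, with medians of 0.01 and 0.02 (1 and 3 genes had an unadjusted p under 0.05). In small intestine the largest differences were Il18 at -1.43 (adjusted p = 0.602) and the receptor chain Il6ra at 0.88, and in macrophages the cytokines Il33 at -2.30 (adjusted p = 0.255) and Il6 at -1.58. Of the Toll-like receptor and Myd88 axis 0 of 18 and 0 of 14 passed, with 6 and 0 at an unadjusted p under 0.05 and medians of 0.23 and -0.17, the RNA sensor Tlr7 at 0.94 and the peptidoglycan sensor Nod2 at 0.81 having the largest differences in small intestine. Extl3, a proposed receptor of Reg proteins, and the other 5 genes of that list had 0 of 6 called in both, and 0 at an unadjusted p under 0.05, with medians of -0.12 in small intestine and 0.11 in macrophages. In salivary gland Il6st, the shared receptor chain of the interleukin 6 family, rose by 0.97 (SE 0.178, adjusted p = 0.0255), the single call among 7 tested genes of the interleukin list.

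Other defence products of the gut epithelium did not pass either. They had 0 of 16 calls in small intestine (2 at an unadjusted p under 0.05, median -0.31) and 0 of 14 in macrophages (5 at an unadjusted p under 0.05, median 0.53), with the acute phase gene Saa3 at 0.91 in small intestine and the phospholipase Pla2g2a at 1.91 (adjusted p = 0.169) in macrophages. Paneth cell markers had 0 of 9 calls in small intestine and 8 at an unadjusted p under 0.05. Their median was -0.63 with a range of -0.67 to -0.51, beside -0.38 for Reg3g and -0.49 for Reg3b. The percentile subtracted was higher on every small intestine array labelled Irgm1-/- than on any wild type one. With quantile normalization Reg3b and Reg3g turned to 0.06 and 0.09. Whether the lower levels of the Paneth cell markers hold under another scaling was not tested. Enterocyte markers had 0 of 14 calls in small intestine, 5 at an unadjusted p under 0.05, and a median of -0.35. Lactase (Lct), at -2.93 (limma adjusted p = 0.685), had the largest difference. The interferon genes used to check the contrast had 2 of 6 calls in small intestine, Usp18 at 2.68 and Ifit3 at 2.27, and 0 of 6 in macrophages, where 5 had an unadjusted p under 0.05.

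The genes whose levels across the 20 arrays were most like each Reg gene differed between the branches. The likeness is Pearson's r over arrays that share tissues, so it mostly describes tissue. Reg3b and Reg3g were most like the Paneth cell defensin Defa32 (r = 0.986 and 0.993), with the defensins Defa1 and Defa40 also near Reg3g and the enterocyte protease Mep1a near both. Reg1 was most like the acinar membrane protein Gp2 (0.965) and the lipase cofactor Clps (0.918), and Reg2 was most like Pla2g1b, the pancreatic phospholipase (0.94), Cel, a pancreatic lipase (0.932), and the carboxypeptidase Cpb1 (0.918). Reg3a was most like Pnliprp2, a lipase-related protein (0.961), and Reg3d was most like Pdia2, the pancreatic protein disulphide isomerase (0.947). Reg4 was most like Smim6 (0.991). Among the members themselves Reg3b and Reg3g had r = 0.997, Reg3a and Reg3b 0.924, Reg1 and Reg2 0.572, and Reg2 and Reg3g -0.36.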

How the data were processed

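RNA was labelled with Cy5 and hybridized to 1 array per sample. Per the file headers, the scans were processed with Agilent Feature Extraction 11.5.1.1 on an array annotated to mm9, and the deposited scanner files hold intensity values, background-subtracted and detrended by that software and not normalized between arrays. The authors' series table also holds intensity values, normalized in a way that no source used here states, and served as an alternative. Its array medians were equal within a tissue (47.6, 299 and 381). Of its 12 small intestine and macrophage columns, 9 ranked probes like the scanner file of another mouse of the same tissue and genotype, so the table was used for group comparisons and the scanner files for values per mouse. The deposited flag columns (well above background, saturated, outlier) are 0 or 1.

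Here, spots marked as outliers (0.434%) were left out, 0 spots were saturated, and log2 intensity minus the array's 75th percentile over all probes other than controls was used in every tissue. A probe entered a test if 4 arrays (genotype in salivary gland) or 3 arrays (other comparisons) of the groups compared had it well above background, with limma 3.58.1 (lmFit, eBayes; R 4.3.3), Benjamini-Hochberg adjustment over all tested probes and a threshold of 0.05. Genotype was tested within each tissue, and interaction and tissue contrasts in a fit of all 20 arrays. The script was tested on simulated data. Python 3.11.15, pandas 2.3.3, numpy 2.4.6, scipy 1.17.1 and matplotlib 3.10.9 did the rest.

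All 7 members were named, and of each gene list up to 4 called genes or, with none called, up to 2 with the largest difference; of the 5 most like genes per member the leading ones are given. Members and lists were chosen with earlier results of these data known. Gene names come from RefSeq (GRCm38.p6): 27508 probes were matched through an accession, and 11921 carry the scanner file's own name.

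Mice carry numbers within each group in the labels. The deviations of like-numbered mice from their group means had correlations of 0.191, 0.228 and 0.332 (small intestine) and 0.456, 0.228 and 0.627 (macrophages), all over 0.1, so the numbers were taken as pairs. Like-numbered mice there also shared slide and age, and unlike-numbered mice were not compared, so a pairing is not shown. Pairs, replicate block and sex covariate follow the scanner files' assignment to samples, which 9 series table columns do not share. In salivary gland the correlations were 0.189, -0.158, -0.542 and 0.402, and the numbers were not. Samples of a tissue are separate mice per the labels. Alternatives covered background correction, scaling, filters, probes per gene, variance trend, blocks (number, slide, animal), sex, all 20 arrays in a fit, the series table, and leaving out each array. Bounds without each array and differences within pairs were added after seeing the data. The relation of members to acinar markers across the 6 small intestine mice was tested over all pairings.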

Additional observations from a re-analysis of the deposited data

Results flagged for a closer look

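The genotype difference of Reg1, labelled Irgm1-/- minus wild type, was not the same in small intestine and in macrophages of the same animals. The interaction was 7.51 on the log2 scale (limma adjusted p = 0.00085), and over 21 alternatives it lay between 5.78 and 8.43 with adjusted p between 4.95e-07 and 0.00476. In macrophages all 3 mice labelled Irgm1-/- lay below all 3 wild type mice, and in small intestine they did so as well, by less. Acinar markers of the pancreas had interactions of the same sign, with 17 of 29 tested members called, all positive, and a median of 4.44. The test called 0.57% of all probes, 0.517% with a positive value. Try4, Prss2 and Cela2a, the markers with the largest values, were detected on no small intestine array. Their values thus rest on the macrophage difference and measure no difference in small intestine. Reg1 was not detected in macrophages labelled Irgm1-/-, so the size of its interaction rests on signals at background. The part of acinar markers in it was not tested.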

How the results depend on the processing

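In small intestine 0 members passed under any of the 19 alternatives, and Reg3b and Reg3g turned to 0.0591 and 0.0927 with quantile normalization. They turned to 0.0572 and 0.0903 in the authors' series table, which may not be a separate check, since its array medians were equal within a tissue. In macrophages the count of members past the threshold was 1, and 5 with the replicate block, 3 in the fit of all 20 arrays, 0 with sex as a covariate and 0 to 4 when an array was left out (0 without wild type replicate 2, 4 without wild type replicate 3). Reg1 passed under 17 of 19 alternatives. For the interaction the count was 1, and 2 with arrays scaled to their median and 3 without wild type macrophage replicate 3, the added calls being Reg2 and Reg3a, whose values rest on signals at background. Between wild type small intestine and macrophages, Reg4 was at -0.44 with quantile normalization, -0.43 with the percentile over detected probes and -0.16 to 0.41 when a wild type array was left out (-0.16 without small intestine replicate 3). Between small intestine and salivary gland Reg3d was at -0.76 under normexp. Why these values moved was not tested. The replicate block changed no other call of a member.

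Over all probes, the genotype comparisons called 318 probes in salivary gland (169 to 1169 under alternatives other than leaving out an array, the highest with the replicate block), 27 in small intestine (1 to 39) and 38 in macrophages (14 to 1483). Leaving out an array gave 184 to 716 calls in salivary gland (without replicates 2 and 4 labelled Irgm1-/-), 1 to 48 in small intestine (without replicate 1 labelled Irgm1-/- and without wild type replicate 1) and 19 to 62 in macrophages (without wild type replicate 2 and without replicate 3 labelled Irgm1-/-). The interaction called 172 probes, with 74 to 402 under other settings and 36 to 408 without an array (small intestine replicate 3 and macrophage replicate 2, both labelled Irgm1-/-). The median genotype difference of all probes in small intestine was -0.07, and -0.18 with arrays scaled to their median. The correlation with acinar markers across small intestine mice turned to -0.28 (Reg3a), -0.22 (Reg3b), -0.52 (Reg3g), -0.55 (Reg3d) and -0.40 (Reg1) with genotype means removed, and to -0.46 (Reg3b) and -0.35 (Reg3g) with quantile normalization. Signals near background limit Reg1, Reg2 and Reg3a in macrophages to bounds.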
